A study of Mus musculus with 45 samples.

Results

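The 4 libraries described here are those of p53KO mouse embryonic fibroblasts (MEFs) after 8 h of lipopolysaccharide (LPS) and of p53KO MEFs at 0 h of the same LPS series. They were chosen by name, as the count columns of KO-1 and KO-2, the p53KO lines, at these times, and are 4 of the 45 libraries of the study. Both groups were primary MEFs of strain C57BL/6 and genotype p53-/-, starved of serum overnight in 0.5% bovine calf serum. The 8 h group received LPS at 100 ng/ml and the 0 h group received no stimulus. The study followed p53KO MEFs and their WT littermate MEFs through 0, 0.5, 1, 3 and 8 h of LPS, TNF or IL-1b, with 2 libraries a group in p53KO and 1 in WT. It used p53 loss so that primary cells could be propagated long enough for other experiments, and asked whether inducible expression is alike in p53KO and WT cells. The design text calls the p53KO libraries biological replicates; where nothing more is said of separate embryos or cultures, p-values measure the spread between these libraries. No library of untreated cells at 8 h was analysed here, so time in low serum and LPS cannot be told apart at 8 h.

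LPS is a glycolipid of the outer membrane of Gram-negative bacteria. It is sensed by Toll-like receptor TLR4 with its partners CD14 and MD-2, and the receptor signals through MyD88 to NF-kB and MAP kinases, and through TRIF to IRF3, which turns on interferon beta. Secreted interferon beta then acts back on the cells through IFNAR, JAK kinases and STAT factors, which switch on the interferon-stimulated genes. Fibroblasts are not professional immune cells, but respond to LPS with chemokines, cytokines, adhesion molecules and antiviral proteins.

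Levels below are CPM, each gene's count relative to its library's total count in genes after TMM scaling, given for KO-1 and then KO-2. Each log2 change is the fitted 8 h over 0 h value ± an approximate standard error (SE). This SE is the size of the log2 change divided by the square root of the F statistic of its test. A gene is said to have risen or fallen where edgeR's quasi-likelihood test gave a Benjamini-Hochberg adjusted p under 0.05 over all 13851 genes tested. CPM is not divided by gene length, so the levels of single genes are compared between libraries and not with each other. Sums of CPM over marker genes mix genes of different length and are only a rough guide. The 4 libraries held 9534211 to 11072939 counts in genes (all 45 libraries, 5619870 to 15355994), and the 2 libraries of a group differed by more than counting error, with a chi-square per degree of freedom of 7.23 at 8 h and 4.06 at 0 h. Trp53 itself read 80 and 80.9 CPM at 8 h, against 64.4 and 58.8 CPM at 0 h (log2 change 0.39 ± 0.08), and over all their libraries KO-1 and KO-2 lay at 50.9 to 86.6 and 53.9 to 83.2 CPM, against 158 to 293 CPM in WT. The p53KO libraries thus lay below every WT library, although not at 0; how the p53 allele was made and which exons it lacks is not given in the sources used here, and counts per gene do not separate exons. Mitochondrial transcripts made up 0.397% and 0.35% of counts at 8 h, against 0.704% and 0.706% at 0 h; their part in the results was not tested.

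The fibroblast label was borne out by its markers. The 15 fibroblast genes, among them the collagen genes Col1a1 and Col3a1, Vim and Pdgfrb, summed to 35020 and 43890 CPM at 8 h, against 37840 and 34960 CPM at 0 h. Macrophage and leukocyte markers were not at 0: the 16 genes summed to 601 and 479 CPM at 8 h, against 480.1 and 430.1 CPM at 0 h. Of the 14 tested, 7 rose, among them Adgre1 and Cd52, and 2 fell, Cd68 and Laptm5. Of all genes 17% rose and 17.2% fell. Lyz2, which encodes a macrophage lysozyme, did not pass the test, at 246 and 179 CPM at 8 h, against 196 and 174 CPM at 0 h. The T-cell gene Cd3e had no count in any of the 4 libraries. Endothelial markers summed to 200.1 and 236 CPM at 8 h, against 114 and 89.8 CPM at 0 h, most of it from Flt1, with Tie1 and Cldn5 at 0. Epithelial markers summed to 48.8 and 45.4 CPM at 8 h, against 48.8 and 49.5 CPM at 0 h, and erythroid markers to under 0.5 CPM in every library. Neural markers stood at 293 and 275 CPM at 8 h, against 278 and 230 CPM at 0 h, muscle markers at 12.5 and 12.3 CPM, against 14.2 and 15 CPM, and adipocyte markers at 54.4 and 65 CPM, against 62.7 and 69.6 CPM.

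After 8 h of LPS, 2350 of the 13851 genes were higher (17%) and 2382 were lower (17.2%) than at 0 h, each in the same direction in both lines. Because this held for every gene that rose or fell, agreement of the lines for a named gene below describes it and adds no support. The rises and falls counted in each list below are to be read beside these 2 shares. Over all genes, the counts in the 2 directions were alike but the sizes were not. A rise of at least 2-fold was seen for 765 genes (5.52%) and a fall of that size for 471 genes (3.4%). Changes of at least 4-fold were seen for 386 genes that rose (2.79%) and 91 that fell (0.657%), and changes of at least 8-fold were seen for 225 that rose (1.62%) and 18 that fell (0.13%). The median log2 change over all genes was -0.02. The count of lower genes was 1565 without the KO-1 library at 8 h, and by DESeq2 it was 1354, beside 1851 higher. Of the 765 genes that rose at least 2-fold, 554 had their highest mean level of the LPS series at 8 h, 206 at 3 h and 5 at 1 h; of the 471 that fell at least 2-fold, 398 had their lowest mean level at 8 h, 72 at 3 h and 1 at 1 h. The genes were read through 33 lists of pathways and functions, which together hold 841 genes of the count table. These lists took in 75 of the 100 largest rises but 12 of the 100 largest falls. The lists were chosen with earlier results of these data known, so this split describes the choice of lists and is not a result about the genes.

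**Figure D1:**
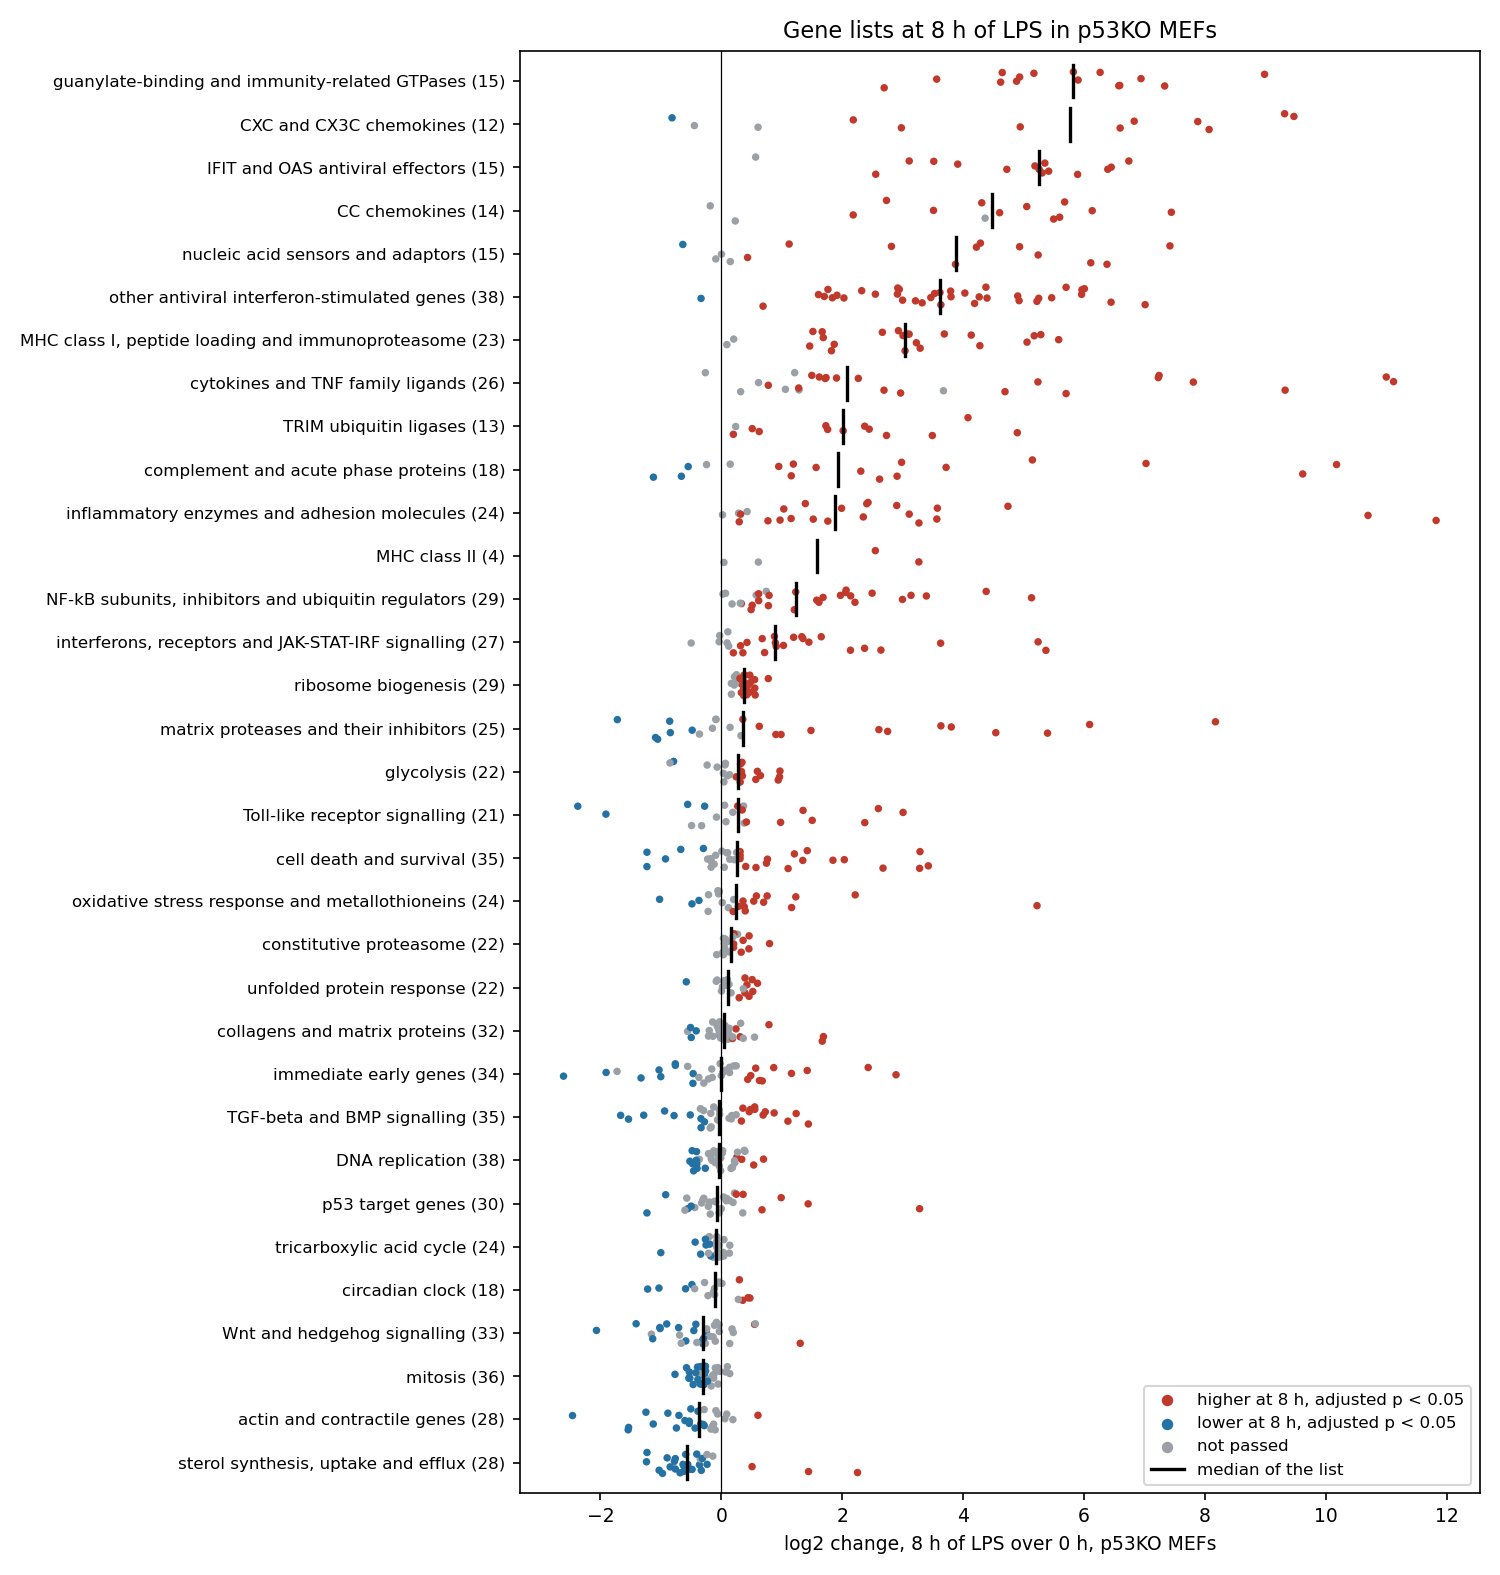
Fitted log2 change of every tested member of the 33 gene lists, 8 h of LPS over 0 h in p53KO MEFs. Each point is a gene, red where it rose, blue where it fell and grey where it did not pass. Each bar is the median of its list. The guanylate-binding and immunity-related GTPases (median 5.82), CXC chemokines (5.77) and IFIT and OAS genes (5.26) lie furthest to the right, while the sterol (-0.57) and actin (-0.36) lists lie left of 0.

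The 10 largest rises among genes with a mean of at least 5 CPM at 8 h were from almost nothing. Nos2, which makes nitric oxide from arginine (ENSMUSG00000020826, mm9 chr11:78734289-78773756, plus strand), read 43.9 and 49.4 CPM at 8 h, against 0 and 0 CPM at 0 h. With no count in either 0 h library, this was at least 348-fold higher, taking 3 counts over both libraries as the floor (adjusted p = 1.25e-14, edgeR's quasi-likelihood test). The other genes with no count at 0 h among the 10 largest rises were Il12b, the shared subunit of interleukins 12 and 23, at 24.4 and 28.3 CPM at 8 h (at least 196-fold higher), the iron-sequestering Lcn2 at 11.1 and 18.6 CPM (at least 112-fold) and the scavenger receptor Marco at 16.1 and 12.8 CPM (at least 107-fold). Il1b, the pyrogenic cytokine, read 248 and 208 CPM at 8 h, against 0.0958 and 0.0843 CPM at 0 h, where both 0 h libraries together held 2 counts (ratio 2534, exact 95% counting interval 701 to 20930). Acod1, which makes itaconate, read 190.2 and 150.4 CPM at 8 h, against 0.0958 and 0.0843 CPM at 0 h, again 2 counts at 0 h (ratio 1890, exact 95% counting interval 523 to 15610). The remaining genes of the 10 had more than 3 counts at 0 h: the acute phase protein Saa3, 175 and 197 CPM at 8 h, against 0.192 and 0.253 CPM at 0 h (log2 change 9.62 ± 0.38), the chemokines Cxcl9 (9.47 ± 0.29) and Cxcl2 (9.32 ± 0.41), and Il1a (9.32 ± 0.30). In all 10 the libraries of the 2 times were far apart in both lines, although the same direction in both was a condition of the choice. Nos2, Il1b, Il12b, Acod1 and Marco are best known from macrophages, whose markers summed to 601 and 479 CPM at 8 h, against 480.1 and 430.1 CPM at 0 h; their part in these rises was not tested.

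Antiviral effectors of the interferon system rose nearly as a block. The IFIT proteins bind viral RNA and the OAS enzymes make a second messenger when they meet double-stranded RNA. Of the 15 genes of this list, 14 rose and none fell, with a median log2 change of 5.26 against -0.02 over all genes. Ifit3 read 726 and 655 CPM at 8 h, against 7.76 and 8.01 CPM at 0 h (log2 change 6.45 ± 0.12). Oas3, a sensor of long double-stranded RNA, read 21.1 and 18.8 CPM at 8 h, against 0.383 and 0.0843 CPM at 0 h (log2 change 6.39 ± 0.41). Oasl2 read 359 and 419.8 CPM at 8 h, against 12.1 and 8.43 CPM at 0 h (log2 change 5.26 ± 0.19). The 8 h libraries lay above the 0 h libraries without overlap for each of these genes, as they did for 30.6% of all genes tested. Reads of the neighbouring Ifit and Oas copies can be split between paralogues, so single members are less certain than the list.

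The promoters of the genes this account turns on are shown here from RefSeq (GRCm38.p6, a later build than the mm9 of the counts), as the 220 bases that end at the base before the annotated start. Capitals mark matches to the core of the interferon-stimulated response element (ISRE), GAAA, any 2 bases, GAAA, or to a kB element, GGG, any 3 bases, TTCC, on either strand; a match is a description of letters, not a bound site. Ifit3 (chr19:34583309-34583528, plus strand) has ISRE cores from -156 and -122, Oas3 (chr5:120777660-120777879, minus strand) an ISRE core from -75 and a kB match from -23, and the GTPase genes Gbp2 (chr3:142620443-142620662, plus strand) and Gm12250 (chr11:58183623-58183842, plus strand) ISRE cores from -59 and from -91 and -46. Cxcl10 (chr5:92348890-92349109, minus strand) has an ISRE core from -213 and kB matches from -159 and -104, Cxcl2 (chr5:90903679-90903898, plus strand) kB matches from -97, -96 (overlapping) and -78, and Nfkbia (chr12:55492648-55492867, minus strand) a kB match from -29. Tap1 (chr17:34187336-34187555, plus strand) has neither in this window.
Ifit3: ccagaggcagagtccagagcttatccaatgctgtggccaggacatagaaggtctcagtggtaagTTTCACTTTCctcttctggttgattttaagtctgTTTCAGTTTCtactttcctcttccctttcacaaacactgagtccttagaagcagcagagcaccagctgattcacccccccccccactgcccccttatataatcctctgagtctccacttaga
Oas3: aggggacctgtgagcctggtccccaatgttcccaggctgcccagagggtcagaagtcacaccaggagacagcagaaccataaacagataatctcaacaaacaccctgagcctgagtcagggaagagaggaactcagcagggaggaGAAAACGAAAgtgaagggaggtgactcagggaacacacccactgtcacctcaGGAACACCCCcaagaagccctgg
Gbp2: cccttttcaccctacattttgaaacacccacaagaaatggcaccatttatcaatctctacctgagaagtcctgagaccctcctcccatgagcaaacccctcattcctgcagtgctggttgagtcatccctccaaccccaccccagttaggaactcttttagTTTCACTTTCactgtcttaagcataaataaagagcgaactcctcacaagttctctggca
Gm12250: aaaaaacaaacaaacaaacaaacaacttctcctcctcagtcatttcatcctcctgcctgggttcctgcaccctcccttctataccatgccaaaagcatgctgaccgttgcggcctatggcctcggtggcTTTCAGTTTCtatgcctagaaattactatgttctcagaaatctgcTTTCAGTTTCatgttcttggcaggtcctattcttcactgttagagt
Tap1: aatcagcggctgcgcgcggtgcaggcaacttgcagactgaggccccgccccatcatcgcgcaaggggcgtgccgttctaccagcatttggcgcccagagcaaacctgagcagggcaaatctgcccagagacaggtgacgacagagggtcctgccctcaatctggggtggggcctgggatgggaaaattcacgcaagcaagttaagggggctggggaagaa
Cxcl10: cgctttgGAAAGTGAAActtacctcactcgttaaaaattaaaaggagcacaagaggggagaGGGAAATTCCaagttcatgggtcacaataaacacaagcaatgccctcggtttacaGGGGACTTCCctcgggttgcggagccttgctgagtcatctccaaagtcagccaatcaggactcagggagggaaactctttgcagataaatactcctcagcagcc
Cxcl2: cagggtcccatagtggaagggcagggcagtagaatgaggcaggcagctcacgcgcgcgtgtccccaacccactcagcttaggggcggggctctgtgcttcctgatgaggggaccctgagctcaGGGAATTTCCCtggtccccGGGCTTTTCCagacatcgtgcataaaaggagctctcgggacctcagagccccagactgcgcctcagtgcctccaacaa
Nfkbia: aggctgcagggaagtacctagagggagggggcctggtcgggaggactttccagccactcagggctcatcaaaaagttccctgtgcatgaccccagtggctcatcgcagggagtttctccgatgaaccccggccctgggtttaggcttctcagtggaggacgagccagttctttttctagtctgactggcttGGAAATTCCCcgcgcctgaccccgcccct

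Counted over windows of 250 bases before each RefSeq start, the ISRE core was in 2.98% of all 32851 windows and the kB element in 4.65%. Among windows of genes that rose at least 2-fold the shares were 12.4% and 8.56% (701 windows of 551 genes), among those that fell at least 2-fold 1.58% and 4.51% (443 windows of 335 genes), and among genes with no call 2.19% and 4.87%. The ISRE core was in 10 of 15 windows of the IFIT and OAS list and in 10 of 12 of the GTPase list, but in 0 of 36 of the NF-kB list. The kB element was in 17 of 36 windows of the NF-kB list and in 4 of 10 of the CXC chemokine list, but in 0 of 12 of the GTPase list. These are shares of windows, some of which belong to the same gene, and carry no test.

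The wider set of antiviral interferon-stimulated genes moved with them. Of 38 tested, 37 rose and Ifi27 fell slightly (log2 change -0.34 ± 0.10), with a median of 3.62. Isg15, a ubiquitin-like protein joined to other proteins during infection, read 574 and 553 CPM at 8 h, against 25.1 and 12.4 CPM at 0 h (log2 change 4.92 ± 0.24). Its protease Usp18 read 328 and 265 CPM at 8 h, against 8.14 and 5.4 CPM at 0 h (log2 change 5.46 ± 0.20). Mx1, which blocks viral nucleoproteins, rose most among members with more than 3 counts at 0 h, at 65.2 and 76.8 CPM at 8 h, against 0.671 and 0.422 CPM at 0 h (log2 change 7.01 ± 0.30). Rsad2 (viperin), Cmpk2 and Phf11d rose by 5.96 ± 0.20, 6.00 ± 0.20 and 5.70 ± 0.19. At the small end were Ifitm2 (0.69 ± 0.10) and Samhd1 (1.61 ± 0.10), which already stood at 139 and 140.0 and 116 and 114 CPM at 0 h.

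All 15 tested guanylate-binding and immunity-related GTPases rose, with a median log2 change of 5.82; these proteins attack the membranes of vacuoles that hold pathogens. Gbp2 read 1169 and 1202 CPM at 8 h, against 9.58 and 5.31 CPM at 0 h (log2 change 7.33 ± 0.19). Gbp3 read 366 and 372 CPM at 8 h, against 4.5 and 3.2 CPM at 0 h (log2 change 6.59 ± 0.14). Iigp1 read 264 and 257 CPM at 8 h, against 4.31 and 2.53 CPM at 0 h (log2 change 6.27 ± 0.18). The 2 times were far apart in both lines for these 3 genes. Gbp2b had 3 counts at 0 h (ratio 558, exact 95% counting interval 191 to 2710). Irgm1, which restrains the other GTPases, rose least (458 and 407 CPM at 8 h, against 76.6 and 57.4 CPM at 0 h; log2 change 2.69 ± 0.15). Tgtp1 and Tgtp2 are near-identical and their split is uncertain.

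Among 15 nucleic acid sensors and adaptors, 11 rose and 1 fell, with a median of 3.87. Among the RNA sensors, Ifih1 (MDA5) read 189.5 and 177 CPM at 8 h, against 15.3 and 9.87 CPM at 0 h (log2 change 3.87 ± 0.18). Ddx58 (RIG-I) read 322 and 353 CPM at 8 h, against 51.5 and 44.7 CPM at 0 h (log2 change 2.81 ± 0.13). The left-handed nucleic acid sensor Zbp1 read 60.9 and 65.1 CPM at 8 h, against 1.34 and 0.506 CPM at 0 h (log2 change 6.11 ± 0.28). The DNA sensor Cgas rose less (1.12 ± 0.15), and its partner Tmem173 (STING) less again (0.43 ± 0.11). Mavs, the adaptor of RIG-I and MDA5, did not pass (0.15 ± 0.10), and the mitochondrial Nlrx1 fell (-0.64 ± 0.23). Of 13 TRIM ubiquitin ligases, 12 rose (median 2.02), from Trim30a (134 and 127 CPM at 8 h, against 5.75 and 3.12 CPM at 0 h; log2 change 4.90 ± 0.22) to Trim28 (0.20 ± 0.07); Trim26 did not pass (0.24 ± 0.10).

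The signalling chain from interferon to these genes was itself higher at several steps. Of 27 tested interferon receptors, JAK kinases, STATs, IRFs and their inhibitors and partners, 21 rose and none fell (median 0.89); 6 did not pass. The interferon genes of the list, Ifnb1 and Ifna4, were too low to be tested, with 1 count each at 8 h and 0 counts at 0 h over both lines. Irf7, the factor that amplifies interferon production, read 227 and 245 CPM at 8 h, against 6.13 and 5.31 CPM at 0 h (log2 change 5.37 ± 0.17). Other transcription factors of the chain also rose, without overlap between the times, as for 30.6% of all genes tested. Stat2 read 264 and 285 CPM at 8 h, against 49.9 and 38.5 CPM at 0 h (log2 change 2.64 ± 0.15). Irf9 read 88.9 and 89.8 CPM at 8 h, against 37.5 and 28.2 CPM at 0 h (log2 change 1.45 ± 0.12). Irf3, the kinase Tyk2 and Stat6 did not pass (-0.04 ± 0.12, 0.10 ± 0.14 and 0.11 ± 0.06). The receptor chains Ifnar1 and Ifnar2 rose by 0.68 ± 0.09 and 0.89 ± 0.09, and the feedback inhibitors Socs1 and Socs3 by 1.35 ± 0.25 and 2.14 ± 0.12.

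Genes that present peptides on MHC class I rose together. Of 23 tested, 21 rose and none fell, with a median of 3.04; the endoplasmic reticulum chaperones Pdia3 and Calr, which also serve other proteins, did not pass (0.20 ± 0.08 and 0.09 ± 0.08). The peptide pump subunit Tap1 read 165 and 177 CPM at 8 h, against 5.56 and 3.96 CPM at 0 h (log2 change 5.17 ± 0.16). Its partner Tap2 read 53.9 and 66.9 CPM at 8 h, against 6.51 and 8.09 CPM at 0 h (log2 change 3.04 ± 0.15). Both chains of the pump lay higher at 8 h in each line. Psmb8, a catalytic subunit of the immunoproteasome, read 67.4 and 77.5 CPM at 8 h, against 4.12 and 3.37 CPM at 0 h (log2 change 4.28 ± 0.18). Nlrc5, the transactivator of class I genes, read 35.6 and 39.7 CPM at 8 h, against 0.958 and 1.26 CPM at 0 h (log2 change 5.06 ± 0.24). Light chain B2m, already at 288 and 298 CPM at 0 h, reached 1020 and 1051 CPM at 8 h (log2 change 1.82 ± 0.06), and the heavy chains H2-K1 and H2-D1 rose by 2.93 ± 0.14 and 2.66 ± 0.08. Counts of the H2 genes are uncertain one by one, since their sequences are close and reads that fit several places were kept out of gene counts. The constitutive proteasome moved little beside this: 8 of 22 subunits rose, none fell, and the median was 0.16. Of 4 tested MHC class II genes, 2 rose, of which H2-Ab1 lost the call by DESeq2 (adjusted p = 0.0686, and 0.000283 at the lowest over the alternatives); Cd74, the invariant chain, read 2.94 and 6.71 CPM at 8 h, against 0.575 and 0.422 CPM at 0 h.

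Genes of NF-kB and its inhibitors were higher at 8 h as well. Of 29 tested, 23 rose and none fell (median 1.23). The inhibitor Nfkbia (IkB alpha) read 233 and 256 CPM at 8 h, against 21.9 and 24.6 CPM at 0 h (log2 change 3.39 ± 0.13). The ubiquitin editor Tnfaip3 (A20) read 57.5 and 72.3 CPM at 8 h, against 8.72 and 6.16 CPM at 0 h (log2 change 3.14 ± 0.20). The subunits Nfkb2 and Relb rose by 2.06 ± 0.13 and 1.97 ± 0.17, and Rela by 0.49 ± 0.09. The kinase subunits Chuk, Ikbkb and Ikbkg did not pass (0.07 ± 0.08, 0.31 ± 0.15 and 0.03 ± 0.08). At the receptor, Tlr2 rose to 54.2 and 68.1 CPM at 8 h, against 6.8 and 8.35 CPM at 0 h (log2 change 3.01 ± 0.15), and Cd14 to 95 and 88.8 CPM, against 17.7 and 12.8 CPM (log2 change 2.60 ± 0.12). Tlr4, the LPS receptor, did not pass (8.19 and 7.98 CPM at 8 h, against 10.7 and 12 CPM at 0 h; log2 change -0.49 ± 0.20), nor did Ticam1, which encodes TRIF (0.08 ± 0.11). Of the 21 Toll-like receptor genes 9 rose and 4 fell (median 0.27), where 17% of all genes rose and 17.2% fell. The largest fall was that of Tlr13, a mouse sensor of bacterial ribosomal RNA. It read 1.78 and 1.56 CPM at 8 h, against 8.53 and 8.85 CPM at 0 h (log2 change -2.37 ± 0.29).

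Most chemokine genes tested rose. Of 12 CXC and CX3C chemokines, 9 rose and 1 fell (median 5.77), and of 14 CC chemokines 11 rose and none fell (median 4.48). Cxcl10, which draws T cells, read 2718 and 2340 CPM at 8 h, against 11 and 10.4 CPM at 0 h (log2 change 7.88 ± 0.14). Ccl2, the monocyte attractant, read 1684 and 1513 CPM at 8 h, against 33.5 and 29 CPM at 0 h (log2 change 5.68 ± 0.13). Ccl5 read 149.8 and 198 CPM at 8 h, against 1.15 and 0.843 CPM at 0 h (log2 change 7.44 ± 0.32). The 8 h libraries of all 3 genes lay far above the 0 h libraries in both lines. The neutrophil attractants Cxcl1 and Cxcl5 rose by 6.60 ± 0.63 and 4.94 ± 0.28. Cxcl12, the homeostatic chemokine of stromal cells, went the other way, at 407 and 343 CPM at 8 h, against 715 and 603 CPM at 0 h (log2 change -0.81 ± 0.15). Cxcl14 did not pass (-0.45 ± 0.23). Ccl3 and Ccl4, which macrophages also make, rose by 6.13 ± 0.17 and 4.31 ± 0.24; the macrophage marker sums are given above.

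**Figure D2:**
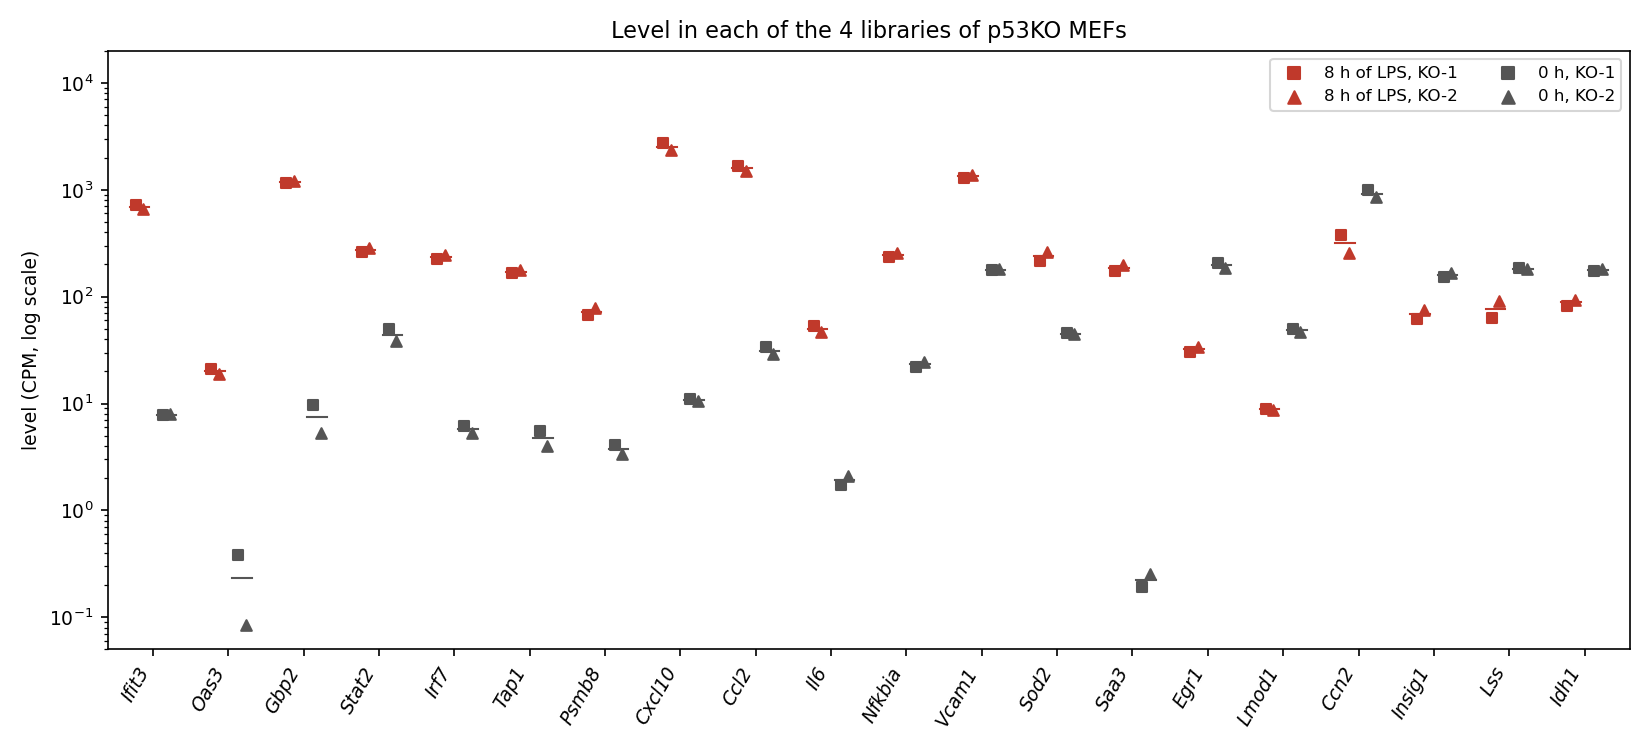
Level of 20 genes in each of the 4 libraries, in CPM on a log axis; 8 h of LPS is drawn left of 0 h for each gene, with a separate symbol for KO-1 and KO-2 and a short line at their mean. Cxcl10, Gbp2 and Saa3 lie far above their 0 h points, Egr1, Lmod1, Ccn2, Insig1, Lss and Idh1 below them, in both lines.

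Of 26 cytokines and TNF family ligands, 19 rose and none fell (median 2.09). Il6 read 53.2 and 47.1 CPM at 8 h, against 1.72 and 2.11 CPM at 0 h (log2 change 4.69 ± 0.18). Tnf read 42.8 and 32.6 CPM at 8 h, against 0.862 and 1.1 CPM at 0 h (log2 change 5.24 ± 0.25). Il1rn, the natural antagonist of interleukin 1, read 206 and 205 CPM at 8 h, against 25 and 27.6 CPM at 0 h (log2 change 2.97 ± 0.10). The growth factors of myeloid cells also rose: Csf1 by 1.5 ± 0.11, and Csf3 with 24.2 and 20.3 CPM at 8 h, against 3 counts in all at 0 h (ratio 165, exact 95% counting interval 56.1 to 804). Clcf1, Il11, Il18 and Il33 did not pass (-0.26 ± 0.15, 0.32 ± 0.36, 0.62 ± 0.39 and 1.06 ± 0.51).

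Enzymes and surface molecules of inflammation rose in 21 of 24 cases with no fall (median 1.88). Vcam1, the ligand of leukocyte integrin VLA-4, read 1297 and 1369 CPM at 8 h, against 176 and 180.5 CPM at 0 h (log2 change 2.90 ± 0.08). Icam1 read 59.4 and 104 CPM at 8 h, against 8.43 and 10.4 CPM at 0 h (log2 change 3.11 ± 0.31). Both adhesion genes lay higher at 8 h in each line, with the lines further apart for Icam1. Sod2, the mitochondrial superoxide dismutase, read 218 and 259.7 CPM at 8 h, against 45.4 and 44.7 CPM at 0 h (log2 change 2.41 ± 0.13). Ptges, which makes prostaglandin E, read 65 and 77.4 CPM at 8 h, against 6.13 and 5.9 CPM at 0 h (log2 change 3.56 ± 0.20). The times did not overlap for either enzyme, as for 30.6% of all genes tested. Ptgs2, which feeds Ptges, rose less (1.15 ± 0.12). Gch1 and Ass1, which supply the cofactor and the arginine of Nos2, rose by 3.27 ± 0.21 and 1.76 ± 0.12. Of 18 complement and acute phase genes, 13 rose and 3 fell (median 1.94), where 17% of all genes rose and 17.2% fell. Complement C3 read 19.8 and 39.3 CPM at 8 h, against 2.49 and 2.02 CPM at 0 h (log2 change 3.72 ± 0.27), while C1qa and C1qc, which macrophages make, fell by 1.12 and 0.66 on the log2 scale (19.6 and 15.1 CPM at 8 h, against 38.8 and 36.7 CPM at 0 h for C1qa).

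Among genes of the matrix, of 25 proteases and inhibitors, 13 rose and 6 fell (median 0.36), beside 17% and 17.2% of all genes. The stromelysin Mmp3 read 348 and 564 CPM at 8 h, against 6.23 and 7.08 CPM at 0 h (log2 change 6.09 ± 0.36). The collagenase Mmp13 read 126 and 179 CPM at 8 h, against 3.35 and 9.44 CPM at 0 h (log2 change 4.54 ± 0.45). The inhibitor Timp1 read 1341 and 1391 CPM at 8 h, against 196 and 209 CPM at 0 h (log2 change 2.75 ± 0.10). The aggrecanase Adamts5 and the plasminogen activator Plau fell (-1.09 ± 0.09 and -0.84 ± 0.11). Of 32 collagens and other matrix proteins, 6 rose, 3 fell and 23 did not pass (median 0.04), where 17% of all genes rose and 17.2% fell. Tenascin C, from Tnc, read 6334 and 7673 CPM at 8 h, against 2484 and 1859 CPM at 0 h (log2 change 1.69 ± 0.16). The fibrillar collagen genes Col1a1, Col1a2 and Col3a1 did not pass (-0.01 ± 0.13, 0.05 ± 0.11 and 0.13 ± 0.12), and the sign of each of these small values depended on the library or scaling used.

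Falls were smaller than rises, and fewer of the largest belonged to one of the chosen lists. Among the 10 largest falls of genes with a mean of at least 5 CPM at 0 h, Ldb2, a cofactor of LIM-domain proteins, read 3.15 and 2.43 CPM at 8 h, against 20.1 and 20.7 CPM at 0 h (log2 change -2.87 ± 0.20). Egr1, the growth-factor-induced transcription factor, read 30.4 and 33.7 CPM at 8 h, against 206 and 186 CPM at 0 h (log2 change -2.61 ± 0.12). Lmod1, which nucleates actin in smooth muscle, read 8.82 and 8.76 CPM at 8 h, against 50.2 and 46.8 CPM at 0 h (log2 change -2.46 ± 0.17). The others were Lrrn3 (-2.77 ± 0.33), Palmd (-2.59 ± 0.29), the G protein regulator Rgs2 (-2.57 ± 0.22), Tlr13 (-2.37 ± 0.29), the focal adhesion adaptor Lims2 (-2.33 ± 0.29), the Ras exchange factor Rasgrp3 (-2.25 ± 0.29) and the ligand Wnt16 (-2.21 ± 0.22). The same direction in both lines was a condition for choosing these 10 genes.

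Genes of the actin cytoskeleton and contraction fell in 17 of 28 cases, with 1 rise, Tagln2 (0.61 ± 0.10), and a median of -0.36. Ccn2, a matricellular protein induced by YAP and SRF cofactors, read 379 and 258 CPM at 8 h, against 994 and 848 CPM at 0 h (log2 change -1.53 ± 0.19). Myl9, a light chain of smooth muscle myosin, read 149 and 137 CPM at 8 h, against 354 and 324 CPM at 0 h (log2 change -1.25 ± 0.10). Ankrd1 and Ccn1 fell by 1.54 and 1.13 on the log2 scale. Acta2 and Tagln, usual marks of contractile fibroblasts, did not pass (-0.15 ± 0.12 and 0.06 ± 0.11). Srf, the transcription factor of many of these genes, read 38.3 and 40 CPM at 8 h, against 82.4 and 77.7 CPM at 0 h (log2 change -1.03 ± 0.08). Among 34 immediate early genes, where Srf was listed, 10 rose and 9 fell (median -0.01), beside 17% and 17.2% of all genes. Ier3 and Junb rose (1.42 ± 0.09 and 0.87 ± 0.11), while Egr1, Klf2, Egr2 and the ERK phosphatase Dusp6 fell (-2.61 ± 0.12, -1.91 ± 0.18, -1.33 ± 0.25 and -1.0 ± 0.13).

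Ligands and receptors of growth and patterning pathways moved in both directions. Of 35 TGF-beta and BMP genes, 12 rose and 9 fell (median -0.03), where 17% of all genes rose and 17.2% fell. The latent TGF-beta binding protein Ltbp2 read 399 and 539 CPM at 8 h, against 211 and 187 CPM at 0 h (log2 change 1.24 ± 0.12). Tgfb3 read 122 and 144 CPM at 8 h, against 315 and 331 CPM at 0 h (log2 change -1.28 ± 0.08). Id1 and Id4, transcriptional targets of BMP signals, fell (-0.78 ± 0.14 and -1.67 ± 0.33). Of 33 Wnt and hedgehog genes, 2 rose and 14 fell (median -0.30). Ptch1, the hedgehog receptor, rose to 50.1 and 49.3 CPM at 8 h, against 22.2 and 18.1 CPM at 0 h (log2 change 1.31 ± 0.12), whereas the hedgehog effector Gli1 fell (1.05 and 1.07 CPM at 8 h, against 2.11 and 2.19 CPM at 0 h; log2 change -1.01 ± 0.32). The Wnt antagonists Dkk3 and Sfrp2 fell by 0.90 and 1.02 on the log2 scale.

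Cholesterol genes were lower nearly throughout. Of 28 sterol genes, 22 fell and 3 rose (median -0.57). The synthesis enzymes were among those that fell. Lss, which closes the sterol ring, read 63.4 and 91.5 CPM at 8 h, against 186 and 179.7 CPM at 0 h (log2 change -1.24 ± 0.12). Mvd read 21.8 and 32.7 CPM at 8 h, against 55.3 and 56.4 CPM at 0 h (log2 change -1.03 ± 0.15). Both enzymes lay lower at 8 h in each line, with KO-1 below KO-2 at that time. Insig1, the sterol-responsive brake on SREBP, read 62 and 74.8 CPM at 8 h, against 154 and 167 CPM at 0 h (log2 change -1.23 ± 0.09). The rises were the efflux pumps Abca1, 51.5 and 79.7 CPM at 8 h, against 28.3 and 20.3 CPM at 0 h (log2 change 1.44 ± 0.21), and Abcg1 (2.25 ± 0.29), and Insig2 (0.51 ± 0.10). Srebf2 itself did not pass (-0.24 ± 0.10).

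In central metabolism, 12 of 22 glycolysis genes rose and 1 fell (median 0.28), where 17% of all genes rose and 17.2% fell. Of 24 tricarboxylic acid cycle genes 7 fell and none rose (median -0.08). The glucose transporter Slc2a1 read 289 and 288 CPM at 8 h, against 149.8 and 151 CPM at 0 h (log2 change 0.94 ± 0.08). Hexokinase Hk2 read 150.1 and 147 CPM at 8 h, against 80.6 and 72.1 CPM at 0 h (log2 change 0.96 ± 0.14). Idh1, the cytosolic isocitrate dehydrogenase, read 82.5 and 94 CPM at 8 h, against 173 and 180.4 CPM at 0 h (log2 change -1.0 ± 0.07). Pgk1 and Pgam1 rose (0.33 ± 0.08 and 0.34 ± 0.10), and the glycolytic enzymes Gapdh, Pkm and Aldoa did not pass (0.03 ± 0.08, 0.07 ± 0.07 and 0.10 ± 0.07). Of 29 ribosome biogenesis genes, 23 rose and none fell, by little (median 0.37), as for the nucleolar Nop56 (243 and 212 CPM at 8 h, against 158 and 158 CPM at 0 h; log2 change 0.52 ± 0.11). Metallothioneins stood out among 24 oxidative stress genes, of which 13 rose and 3 fell (median 0.24), beside 17% and 17.2% of all genes. Mt2 read 359 and 564 CPM at 8 h, against 11.6 and 13.1 CPM at 0 h (log2 change 5.22 ± 0.22). Mt1 read 145 and 187 CPM at 8 h, against 32.8 and 38.6 CPM at 0 h (log2 change 2.21 ± 0.17). The ferritin heavy chain Fth1 rose by 1.23 ± 0.09, and haem oxygenase Hmox1 did not pass (0.01 ± 0.09).

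Mitosis genes were modestly lower. Of 36 mitosis genes, 23 fell and none rose (median -0.30), led by cyclin B2, from Ccnb2, at 43.9 and 34.6 CPM at 8 h, against 68.8 and 64.7 CPM at 0 h (log2 change -0.77 ± 0.09). Cdk1 and Plk1 did not pass (0.07 ± 0.11 and -0.13 ± 0.09). Of 38 DNA replication genes, 4 rose and 9 fell, beside 17% and 17.2% of all genes, and the median of -0.04 was close to that of all genes, with the helicase subunit Mcm6 at 343 and 299 CPM at 8 h, against 193 and 202 CPM at 0 h (log2 change 0.70 ± 0.07) and the other 5 subunits of its ring between -0.06 and 0.02. Fewer cycling cells and less of these RNAs per cell cannot be told apart in bulk libraries, and the same holds for every list above.

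In the cell death list rises outnumbered falls. Of 35 cell death and survival genes, 17 rose and 5 fell (median 0.25), where 17% of all genes rose and 17.2% fell. Mlkl, the pore-former of necroptosis, read 74 and 75.3 CPM at 8 h, against 6.51 and 8.68 CPM at 0 h (log2 change 3.29 ± 0.15). Casp4, which in mouse senses LPS in the cytosol, read 30.3 and 33.3 CPM at 8 h, against 2.59 and 3.29 CPM at 0 h (log2 change 3.42 ± 0.20). Both genes were low at 0 h in each line and lay far higher at 8 h. Gsdmd, the pore-former of pyroptosis, rose by 1.85 ± 0.16, and the inflammasome sensor Nlrp3 by 2.67 ± 0.28. The necroptosis kinase Ripk1 rose little (0.31 ± 0.09) and Ripk3 did not pass (-0.17 ± 0.09), while the inflammasome adaptor Pycard and the gasdermin Gsdme fell (-1.23 ± 0.34 and -0.67 ± 0.20). Bax, Mcl1 and Bcl2l2 did not pass (-0.09 ± 0.08, -0.17 ± 0.07 and -0.12 ± 0.10), and Bcl2 fell (9.77 and 8.08 CPM at 8 h, against 17.7 and 16.1 CPM at 0 h; log2 change -0.92 ± 0.15). Of 30 genes known as p53 targets, 6 rose and 4 fell (median -0.07), close to the 17% and 17.2% of all genes. The death receptor Fas read 27.1 and 27.8 CPM at 8 h, against 2.01 and 3.54 CPM at 0 h (log2 change 3.28 ± 0.22). The cell cycle inhibitor Cdkn1a read 57 and 64.4 CPM at 8 h, against 24.6 and 20.4 CPM at 0 h (log2 change 1.44 ± 0.15). Pmaip1 (Noxa) read 17.1 and 13.4 CPM at 8 h, against 34.8 and 36.7 CPM at 0 h (log2 change -1.23 ± 0.17). Fas and Cdkn1a lay higher, and Pmaip1 lower, at 8 h in each line, and every gene that rose or fell moved alike in both lines. Mdm2 and Ccng1 did not pass (-0.11 ± 0.07 and -0.19 ± 0.08). Of 22 unfolded protein response genes 8 rose and 1 fell (median 0.11), as for the chaperone Hspa5 (0.52 ± 0.06), and of 18 clock genes 4 rose and 4 fell (median -0.11), near the 17% and 17.2% of all genes, with Per3 at -1.03 ± 0.29 and Per1 at 0.47 ± 0.12.

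Set against 3 h of LPS in the same lines, 2793 genes were higher at 8 h (20.2%) and 2495 lower (18%). This comparison shares the 8 h libraries with the comparison to 0 h, so the values are given side by side and not counted as separate support. Effector lists of the interferon system were mostly still higher at 8 h than at 3 h: 13 of 15 IFIT and OAS genes (2 lower), 29 of 38 other antiviral genes (4 lower), 13 of 15 GTPases (none lower) and 20 of 23 class I genes (none lower). The interferon signalling list did not share this, with 8 higher and 9 lower of 27, and the TRIM list had 8 higher and 5 lower of 13. Gbp3 stood at 366 and 372 CPM at 8 h, against 57.6 and 60 CPM at 3 h (log2 difference 2.65 ± 0.10), and H2-Q4 at 210.2 and 227 CPM, against 51.7 and 46.9 CPM (2.15 ± 0.08). Ifit1 and Rsad2 were past their highest level, with Rsad2 at 229 and 180.5 CPM at 8 h, against 494 and 379.5 CPM at 3 h (-1.09 ± 0.13).

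Immediate early, actin and NF-kB genes were mostly below their 3 h levels. Of 34 immediate early genes 28 were lower at 8 h than at 3 h and none higher (median -1.34), of 28 actin genes 25 were lower and none higher (median -0.68), and of 29 NF-kB genes 15 were lower and 3 higher (median -0.31). Lif, a cytokine of the interleukin 6 family, stood at 64.5 and 58.3 CPM at 8 h, against 982 and 1206 CPM at 3 h (-4.16 ± 0.19). Hbegf, an EGF receptor ligand, stood at 50.6 and 39.8 CPM, against 329 and 355 CPM (-2.92 ± 0.09), and Il6 at 53.2 and 47.1 CPM, against 199 and 162 CPM (-1.85 ± 0.11). Lif and Hbegf were chosen by their small adjusted p in this comparison, so the distance between their libraries at the 2 times is no separate support. Against 0 h, 17 of the 28 actin genes had risen at 3 h (21.9% of all genes rose at 3 h) and 2 had fallen (22.1%), where at 8 h 1 had risen and 17 had fallen. The sterol list had 8 rises and 8 falls at 3 h, where at 8 h it had 3 and 22.

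**Figure D3:**
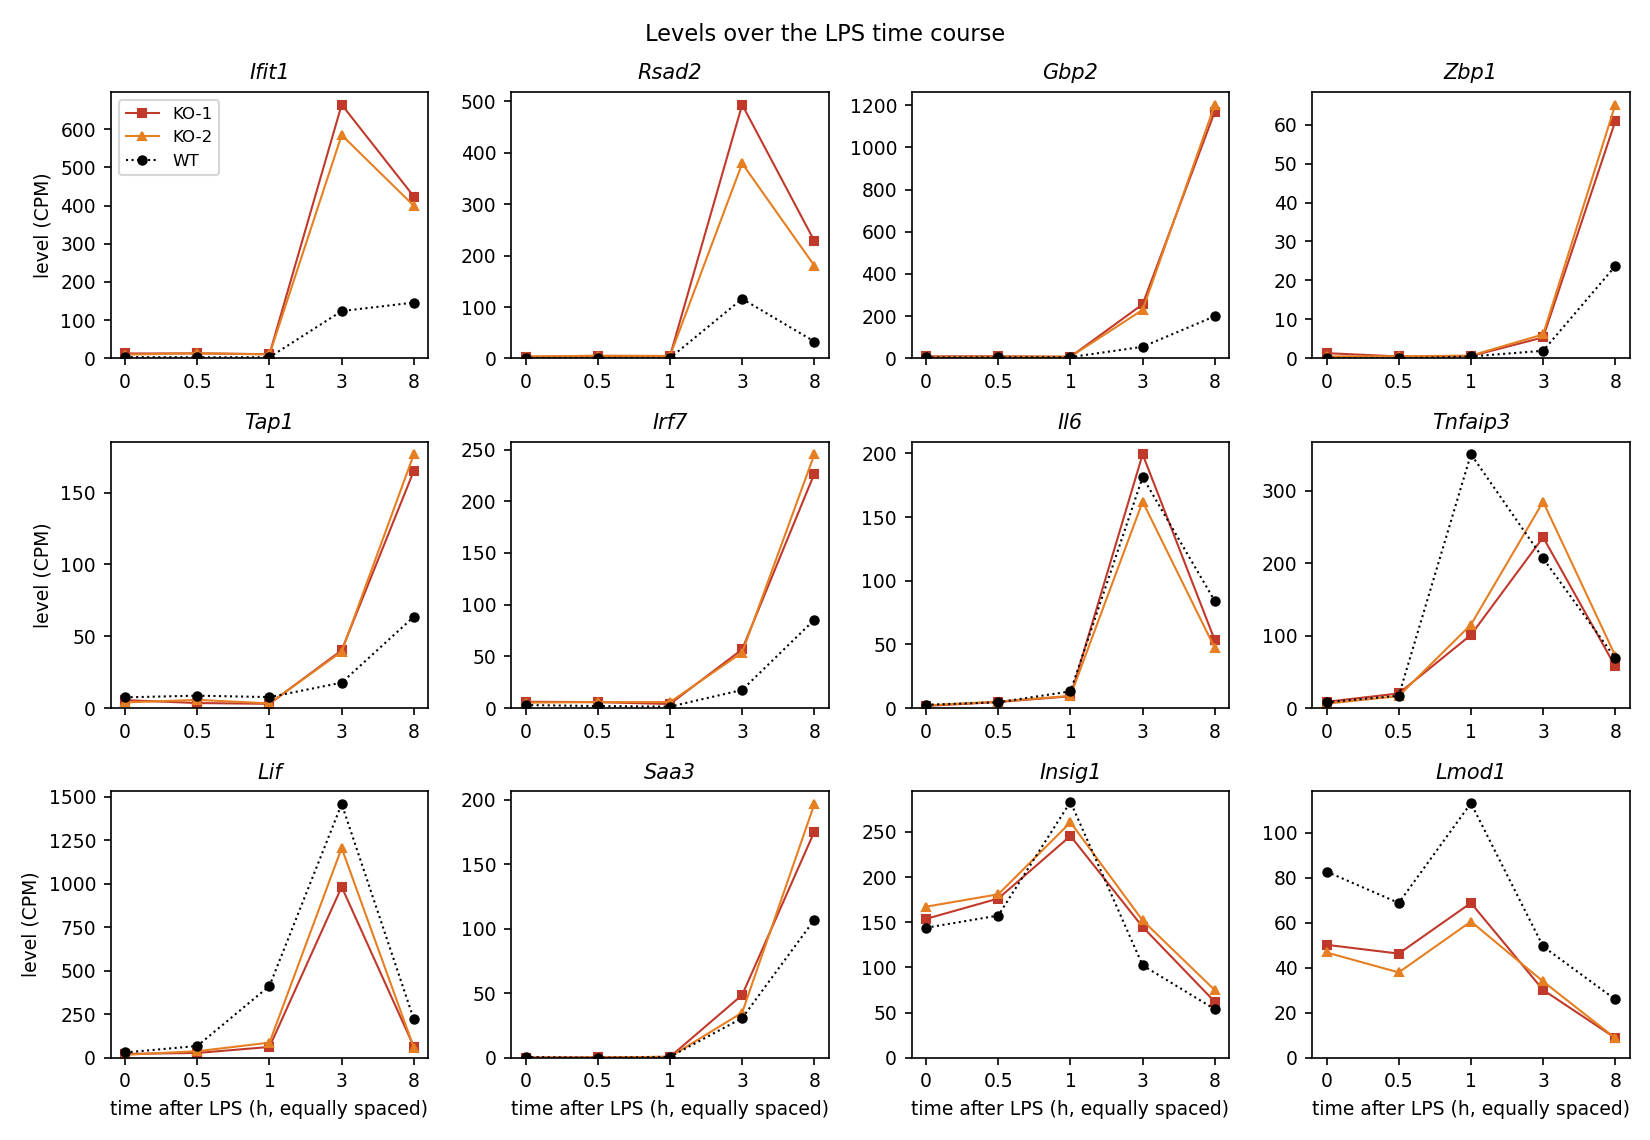
CPM of 12 genes on a linear axis over 0, 0.5, 1, 3 and 8 h of LPS, drawn at equal spacing. Values are those of KO-1, KO-2 and the single WT library at each time. Gbp2, Zbp1, Tap1, Irf7 and Saa3 are highest at 8 h in the p53KO lines, Rsad2, Il6, Tnfaip3 and Lif are highest before 8 h, and Insig1 and Lmod1 end below their 0 h level.

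The response to LPS at 8 h was set against that to TNF and to IL-1b (each 10 ng/ml) as a difference of changes, each against its own 0 h libraries. LPS minus TNF was higher for 481 genes (3.47%) and lower for 129 (0.931%), and LPS minus IL-1b was higher for 475 (3.43%) and lower for 68 (0.491%). With the line as a block, the lower counts were 211 for TNF and 123 for IL-1b. The lower count for TNF was 49 without KO-1 at 8 h of TNF, 52 without KO-1 at 0 h of LPS, 57 without KO-2 at 0 h of TNF and 78 without KO-2 at 8 h of LPS, and the total of 610 was 398 without KO-1 at 8 h of TNF. The lower count for IL-1b was 36 without KO-1 at 8 h of LPS, 39 without KO-1 at 0 h of LPS and 41 without either 0 h library of IL-1b. LPS minus TNF was higher for 14 of 15 IFIT and OAS genes, 35 of 38 other antiviral genes, 13 of 15 GTPases, 17 of 23 class I genes, 9 of 13 TRIM ligases and 8 of 27 interferon signalling genes, with none lower. Ifit3 stood at 726 and 655 CPM after LPS, against a mean of 15.9 ± 0.962 CPM with TNF and 15.3 ± 1.45 CPM with IL-1b (SD, n = 2 each; differences of change 5.15 ± 0.22 and 5.01 ± 0.21). Cxcl10 stood at 2718 and 2340 CPM after LPS, against 77.4 ± 8.72 CPM with TNF and 41.8 ± 0.765 CPM with IL-1b (5.11 ± 0.22 and 5.94 ± 0.21).

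In the NF-kB list of 29 genes, LPS minus TNF was higher for 4 and lower for none (median 0.19), and LPS minus IL-1b was higher for 10 and lower for 1 (median 0.34), beside 3.47% and 3.43% of all genes higher. In the cytokine list of 26 genes, LPS minus TNF was higher for 3 (median 1.86) and LPS minus IL-1b for 4 (median 1.10), with none lower. Nfkbia read 233 and 256 CPM after LPS, against 164 ± 7.68 CPM with TNF and 124 ± 11.8 CPM with IL-1b (0.31 ± 0.18 and 0.74 ± 0.18). Sterol genes went further down with LPS: 8 of 28 were lower and 1 higher against TNF, and 11 lower and none higher against IL-1b. Insig1 stood at 62 and 74.8 CPM after LPS, against 103 ± 8.1 CPM with TNF and 97.8 ± 8.42 CPM with IL-1b (-0.58 ± 0.13 and -0.50 ± 0.13). Ribosome biogenesis genes rose in 28 of 29 cases after 8 h of TNF (14.5% of all genes rose) and in 21 after IL-1b (12.5%), beside the 23 after LPS. Among the genes with the smallest adjusted p below 0 were Alox5, which makes leukotrienes, and the receptors Cx3cr1 and F2rl1, with LPS minus TNF at -3.53 ± 0.58, -1.39 ± 0.24 and -0.78 ± 0.14.

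**Figure D4:**
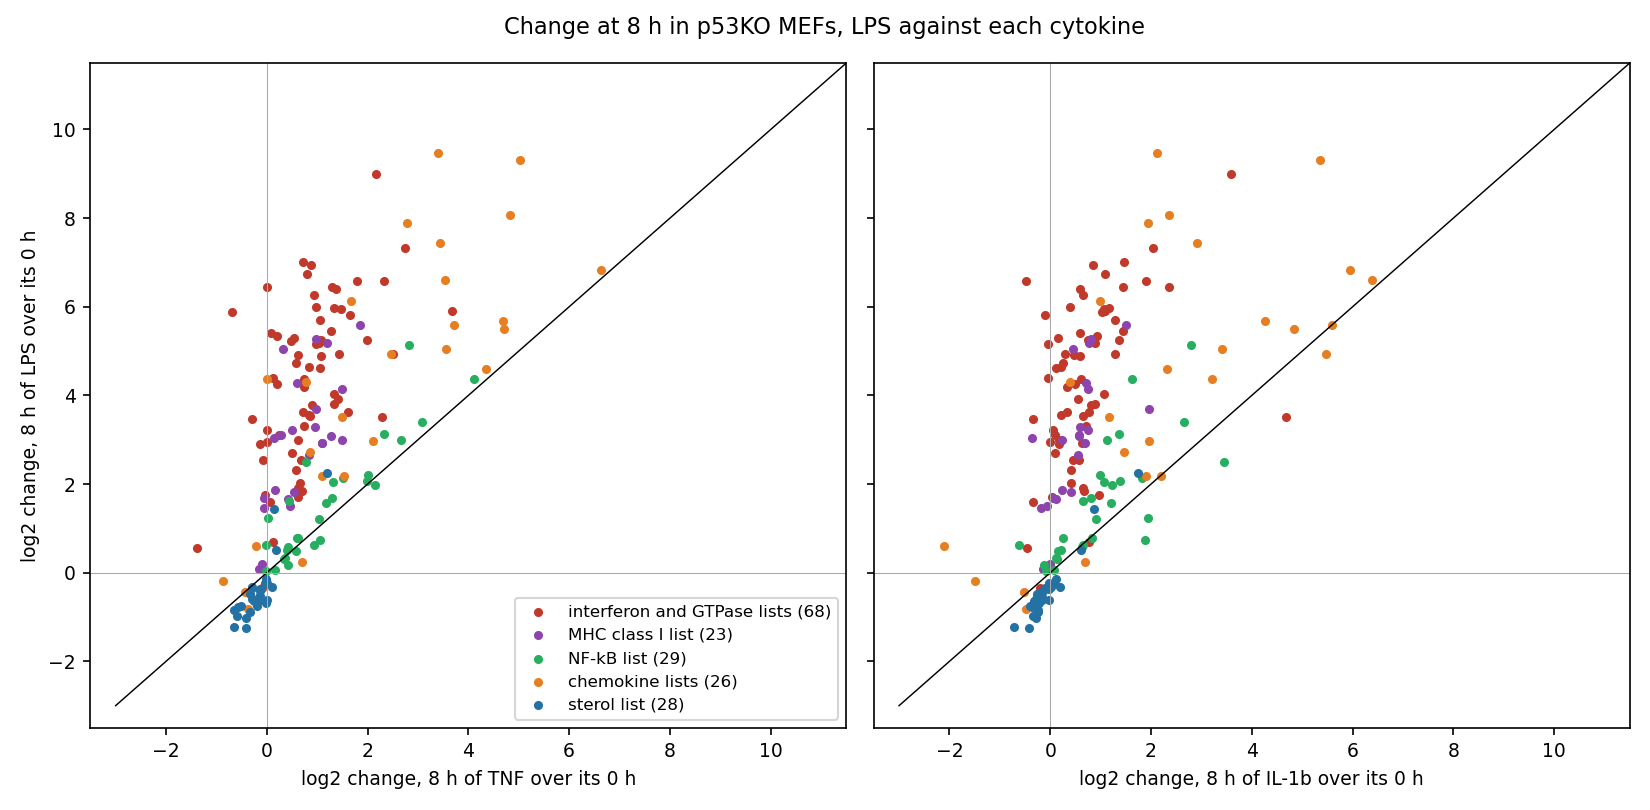
Fitted log2 change after 8 h of LPS (vertical axis) against that after 8 h of TNF or IL-1b (horizontal axes) in p53KO MEFs, each over its own 0 h libraries, for the interferon and GTPase, class I, NF-kB, chemokine and sterol lists. Most interferon, GTPase and class I genes lie above the diagonal in both panels, and the NF-kB list has a median LPS minus TNF of 0.19 and LPS minus IL-1b of 0.34.

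The LPS change at 8 h was also compared between p53KO and WT, where WT has 1 library at each time and its spread is assumed to be that of the p53KO groups. Of the 765 genes that rose at least 2-fold in p53KO, 728 (95.2%) moved the same way in WT, and of the 471 that fell 434 (92.1%). The change was larger (more positive) in p53KO for 98 genes (0.708%) and smaller for 31 (0.224%); with the line as a block these counts were 174 and 74, without the KO-2 library at 0 h they were 62 and 15, and without the KO-1 library at 0 h the smaller set held 18. The class I list held 10 of the 98, with none of its genes lower and a median difference of 0.86. Tap1 read 165 and 177 CPM at 8 h and 5.56 and 3.96 CPM at 0 h in p53KO; in WT it read 63.6 CPM at 8 h, against 7.49 CPM at 0 h (difference 2.09 ± 0.31, adjusted p = 0.000262 in the edgeR fit). Psmb8 read 18.1 CPM at 8 h, against 3.4 CPM at 0 h, in WT (difference 1.87 ± 0.39). Ifit2 differed by 1.82 ± 0.21 and Gbp2 by 1.88 ± 0.46, with Gbp2 in WT at 199.9 CPM at 8 h, against 4.54 CPM at 0 h. Rgs2 differed most in the other direction (-3.11 ± 0.39), with WT at 7.12 CPM at 8 h, against 4.88 CPM at 0 h.

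**Figure D5:**
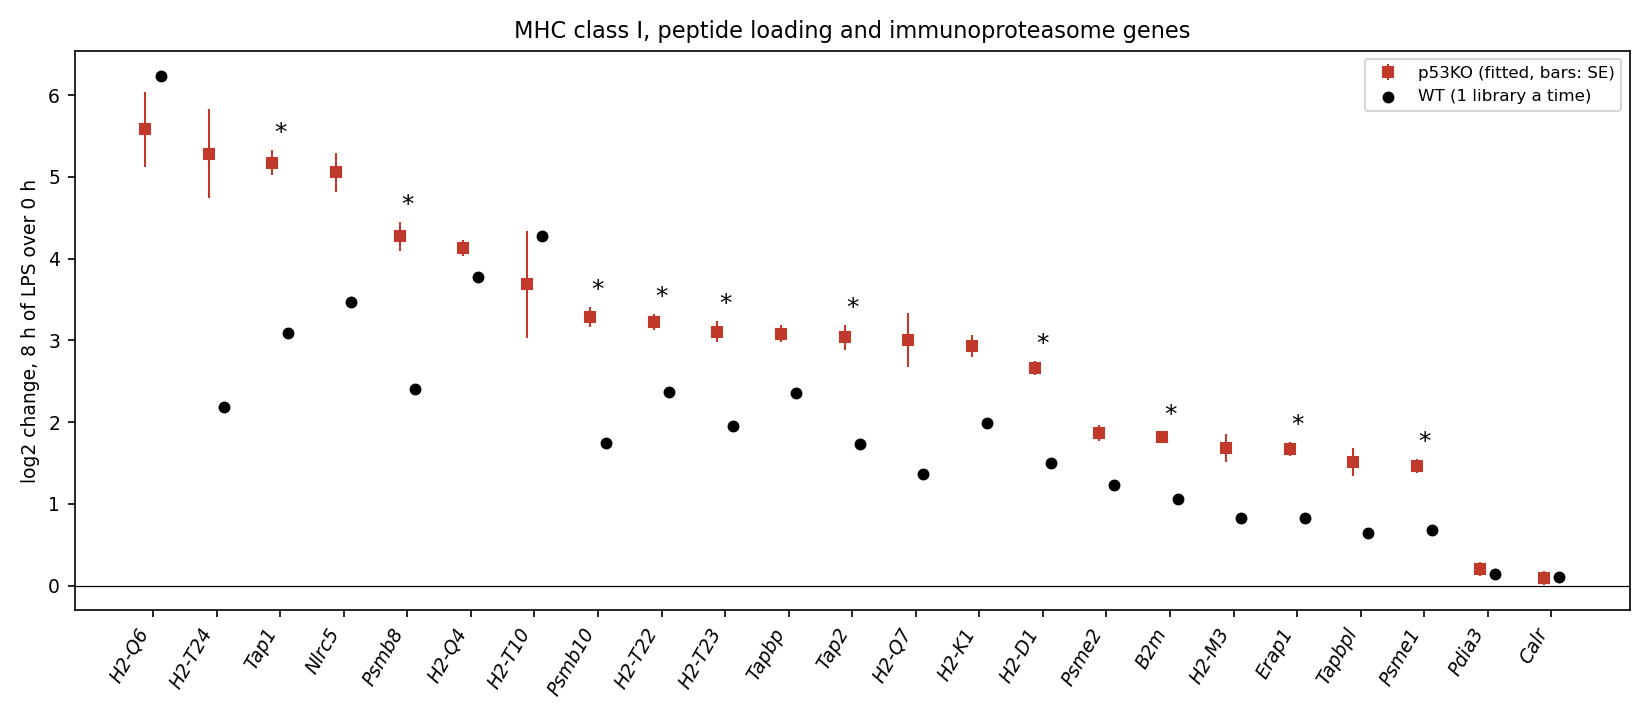
Log2 change at 8 h of LPS over 0 h of the 23 tested class I, peptide loading and immunoproteasome genes, in p53KO (fitted value ± SE, 2 libraries a time) and WT (1 library a time, no error); asterisks mark the 10 genes whose change differed between p53KO and WT at an adjusted p under 0.05. The p53KO points lie above the WT points for all 10 marked genes.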

How the data were processed

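RNA was selected by poly(A), made into stranded libraries and sequenced with paired ends, per the labels' protocols. The deposited table holds whole-number counts per gene, which the authors made with STAR and featureCounts on mm9, per the submitters' processing notes; versions and the strand setting of counting are not given in the sources used here. The table names 37991 genes (32919 matched to a symbol) and 5 categories without a gene, which held 24.7% of all counts and were left out. A share of 20.0% to 21.3% of counts in the 4 libraries was set aside there as not uniquely aligned, so close paralogues are uncertain.

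Genes reaching 1 CPM in 2 or more libraries (13851) were fitted in edgeR 4.0.16 (R 4.3.3) with TMM scaling, 1 mean for each of the 30 groups over all 45 libraries (15 residual degrees of freedom), and the quasi-likelihood test with Benjamini-Hochberg adjustment over all genes tested. This main fit had no term for the line, so its tests were not paired. The line entered only as the replicate block among the alternatives. The common biological coefficient of variation was 0.068. Differences between stimuli or genotypes were contrasts of that fit. On simulated counts with 50 genes in each class, 49 of 50 rises and 47 of 50 falls of 2-fold were recovered, with 9 false calls among 205. Only genes with a mean count over 50 were changed there. Every gene was drawn with the same coefficient of variation, 0.068, and without a line effect. Recovery at low counts, and false calls where the spread differs between genes, were therefore not tried. Alternatives were a replicate block, DESeq2 1.42.0 and its size factors, other filters, leaving out libraries and fits on fewer libraries. Same-numbered libraries share the name of a p53KO line, which is where the pairing comes from. Deviations of KO-1 correlated at -0.05 between 8 h and 0 h of LPS. Over 105 pairs of p53KO groups the median was 0.19, the range was -0.17 to 0.50, and 73 pairs lay over 0.1.

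The lists and genes were chosen with earlier results of these data known. Named genes were the 10 largest rises and falls with a mean of at least 5 CPM, in each list the 4 largest called changes and the 2 members highest in CPM that did not pass, all markers, the 6 smallest adjusted p in each direction against TNF and against 3 h, and Trp53; other list members are named beside their list's count. Listed genes without a row in the table were not analysed here, and the values of 5 list members are not reported here. Promoter sequences came from RefSeq (GRCm38.p6).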

Additional observations from a re-analysis of the deposited data

Results flagged for a closer look

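The change at 8 h of LPS differed between p53KO and WT, by an interaction test across all genes (edgeR's quasi-likelihood test, adjusted p under 0.05), for 39 of the genes named here or held by a list, 27 with a positive and 12 with a negative difference. WT had 1 library at each time, so a single WT library bears on every value, and no explanation was tested. Positive values mean a more positive log2 change in p53KO than in WT. In the class I list the differences were 2.09 for Tap1, 1.87 for Psmb8, 1.54 for Psmb10, 1.31 for Tap2, 1.16 for H2-D1, 1.16 for H2-T23, 0.86 for H2-T22, 0.84 for Erap1, 0.78 for Psme1 and 0.76 for B2m. Among other interferon-stimulated genes they were 2.71 for Isg20, 1.88 for Gbp2, 1.82 for Ifit2, 1.57 for Samhd1, 1.48 for Slfn9, 1.25 for Herc6, 1.10 for Parp12 and 1.01 for Tor3a, and -1.01 for Ifi27. Among genes of inflammation they were 1.99 for Il1rn, 1.68 for Il1rl1, 1.64 for Lgals9, 1.26 for Ccl7, 1.03 for Zfp36 and 0.99 for Vcam1. The necroptosis gene Mlkl differed by 1.55, the helicase gene Mcm6 by 0.92 and the stress factor Ddit3 by 0.85. The other negative differences were those of Rgs2 (-3.11), the cytokine Il11 (-2.52), the transcription factor Klf2 (-1.45), the EGF receptor inhibitor Errfi1 (-0.94), Phlda3 (-0.90), the plasminogen activator Plau (-0.85), haem oxygenase Hmox1 (-0.83), the hyaluronan synthase Has2 (-0.81), Phlda1 (-0.81), the BMP antagonist Grem1 (-0.73) and Mdm2 (-0.65). Has2 had not passed the test of 8 h against 0 h in p53KO (70.3 and 53.1 CPM at 8 h, against 52.4 and 48.8 CPM at 0 h), and in WT it read 146 CPM at 8 h, against 68.3 CPM at 0 h. Mcm6 read 343 and 299 CPM at 8 h, against 193 and 202 CPM at 0 h, in p53KO, and 186 CPM at 8 h, against 216 CPM at 0 h, in WT.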

How the results depend on the processing

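In each alternative, 4305 to 4732 of the 4732 genes called at 8 h were tested, and none of those tested changed sign. The alternatives reuse the same LPS libraries, and every called gene already moved alike in both lines, so this adds little support. The count of higher genes ranged from 1764 to 1927 without a library, that of higher genes past 2-fold from 672 to 745, that of lower genes from 1565 to 1925 and that of lower genes past 2-fold from 369 to 535. DESeq2 called 1354 lower genes and 313 past 2-fold, and a minimum of 5 CPM in 2 libraries left 286 lower past 2-fold. With KO-1 and KO-2 as a replicate block the counts were 2581 higher and 2740 lower, with 781 and 511 past 2-fold. Without a library, LPS minus TNF gave 398 to 565 genes in all, 349 to 470 higher and 49 to 134 lower, LPS minus IL-1b 403 to 484, 362 to 440 and 36 to 74, 8 h against 3 h 3789 to 4602, 2036 to 2461 and 1753 to 2141, and p53KO minus WT 77 to 120, 62 to 93 and 15 to 27. The replicate block gave 211 lower for TNF, 123 lower for IL-1b, and 248 for p53KO minus WT (174 higher, 74 lower). The replicate block with length and GC trend removed, an alternative chosen after seeing the data, gave 1111 for TNF (749 higher, 362 lower), 897 for IL-1b (209 lower) and 358 for p53KO minus WT (237 and 121). DESeq2 gave 44 lower for TNF, 20 for IL-1b and 15 for p53KO minus WT, and no filter on low counts gave 208 for p53KO minus WT (149 and 59). The block lost none of the calls for 8 h against 0 h, DESeq2 kept 3189 of the 4732, and leaving out a library kept 3242 to 3494. Of the named genes, 31 that had passed lost the call under at least 1 alternative, in 70 cases in all. The cause of these shifts was not tested.

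Sign changes were limited, among the named genes reported here, to 24 that had not passed the test. Without a library their log2 changes ran from -0.18 to 0.19 for Tlr7, -1.30 to 0.69 for H2-DMb1, -0.70 to 0.18 for Ccl27a, -0.21 to 0.80 for Ccl25, -0.12 to 0.15 for Tgm2, -0.12 to 0.38 for C3ar1, -0.32 to 0.11 for Timp3, -0.0070 to 0.061 for Nab2, -0.085 to 0.044 for Myc, -0.22 to 0.17 for Col1a1, -0.26 to 0.10 for Flna, -0.31 to 0.11 for Gas1, -0.27 to 0.0053 for Rrm1, -0.20 to 0.0093 for Top2a, -0.033 to 0.054 for Clock, -0.11 to 0.19 for Col1a2, -0.064 to 0.30 for Col3a1, -0.18 to 0.17 for Pdgfrb, -0.046 to 0.41 for Lyz2, -0.10 to 0.70 for Aif1, -0.98 to 0.0145 for Tek, -0.0034 to 0.13 for Krt18, -0.24 to 0.81 for Cldn4 and -0.52 to 0.27 for Sox2. With a minimum of 5 CPM Tlr7 was -0.0044 and Pdgfrb -0.0009. With all 6 p53KO 0 h libraries pooled Tgm2 was -0.026, Nab2 -0.012, Pdgfrb -0.029 and Sox2 0.13. Myc was 0.0042 with DESeq2 size factors and 0.0044 with DESeq2, and Col1a1 0.014 with each. Col1a1 was 0.0037 with p53KO libraries alone, 0.0092 with the 4 LPS libraries alone and 0.025 with the block and trends removed, where Clock was -0.0017.

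Depth limits the genes with few counts at 0 h: their folds are bounds or wide counting intervals, which cover counting error only.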

Other observations

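Many of the largest changes lay outside the 33 lists, and the genes named here were picked after their values were seen. Il1rl1, the receptor of interleukin 33, read 2151 and 2200 CPM at 8 h, against 172 and 215 CPM at 0 h. Rnf213, a large ubiquitin ligase, read 1296 and 1519 CPM at 8 h, against 109.9 and 66.2 CPM at 0 h, and Lgals9, a galectin, 263 and 274 CPM, against 39.8 and 34.6 CPM. Penk, the precursor of enkephalin peptides, read 69.9 and 103 CPM at 8 h, against 2.78 and 3.12 CPM at 0 h. Each of these genes lay higher at 8 h in both lines.

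Among the falls outside the lists were genes known from mesenchymal development and matrix. Aspn and Ogn, small leucine-rich proteoglycans, read 32.6 and 40.7 CPM and 63.5 and 66.2 CPM at 8 h, against 104.0 and 118 CPM and 139 and 172 CPM at 0 h. Itga11, the collagen-binding integrin chain of fibroblasts, read 42.0 and 56.4 CPM at 8 h, against 135 and 120.0 CPM at 0 h. Mylk, the myosin light chain kinase, read 13.2 and 14.4 CPM at 8 h, against 51.3 and 48.6 CPM at 0 h, and the imprinted gene Mest 51.2 and 53.9 CPM, against 157 and 186 CPM. The 2 times did not overlap for any of these genes, as was so for 34.4% of all genes in this direction.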
